A study of Mus musculus with 8 samples.

Results

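The chaperone genes described here are the heat shock proteins, the chaperonins and their direct partners in Neuro 2A (N2A) cells, a mouse neuroblastoma line. They were taken by gene symbol alone: the HSP90, HSP70, HSP110 and small heat shock protein families, HSP60 and HSP10 (Hspd1, Hspe1), J proteins of classes A, B and C (Dnaja, Dnajb, Dnajc), the subunits of the cytosolic chaperonin CCT (Tcp1, Cct2 to Cct8), prefoldin, the BAG proteins and the heat shock factors Hsf1 and Hsf2. No measured value entered the choice. The rule found 90 of 16974 genes, of which 86 were listed at all 4 hours and 78 passed a filter of a mean FPKM of at least 1, against 11311 genes in all. FPKM, the number of fragments scaled by transcript length and library size, is a level per length, so that genes can be set side by side.

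All cultures were starved of serum for 16 h in medium with 0.1% bovine serum albumin. HU210, an agonist of the cannabinoid receptor CB1R, was then added at 2 µM to 4 of the conditions, and drug-free DMSO to the other 4, for 2 h, 4 h, 6 h or 8 h. Each of the 8 conditions was a single mRNA library made from 2 to 3 independent experiments that were pooled before sequencing, so no spread between cultures could be measured. All cells came from 1 line, and the serum starvation was common to both treatments. The study asked which cellular processes respond while these cells grow neurites.

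Chaperones bind unfolded or partly folded proteins. HSP70 proteins grip exposed hydrophobic stretches in a cycle driven by ATP. J proteins bring the substrate and start ATP hydrolysis, and exchange factors (HSP110, several BAG proteins) release the nucleotide. HSP90 acts later on kinases and receptors, the chaperonins enclose a chain in a barrel (HSP60 with its lid HSP10 in mitochondria, CCT for actin and tubulin in the cytosol, fed by prefoldin), and the transcription factor HSF1 switches many of these genes on when unfolded proteins build up. In neurons the same proteins serve the folding of the cytoskeleton and the handling of synaptic proteins.

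Between 11328 and 11444 genes per library had an FPKM of at least 1. Gene by gene, the number of reads behind each FPKM is not known here, and no counting interval can be given. Both 4 h libraries stood apart: on the first principal component, which held 34.8% of the variance, DMSO at 4 h lay at -22.8 and HU210 at 4 h at 19.6, with the other 6 libraries between -10.0 and 9.1. Of 15 neuroblastoma and neuronal markers, 12 reached an FPKM of 1 in at least 1 library, with a summed FPKM of 440 to 535, while Nefl and Nefm were near 0 and Tubb3 was not analysed here. Of 14 markers of other cell types 3 did, with a summed FPKM of 7.25 to 9.03. These sums were 444 and 7.25 in HU210 at 4 h and 486 and 7.48 in DMSO at 4 h, and their part in the results below was not tested. In bulk RNA, fewer cells of a type and less RNA per cell cannot be told apart.

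The chaperone genes were a large item among the cell's mRNA. They made up 1.93% to 2.35% of the summed FPKM of all genes listed at all hours, lowest in HU210 at 2 h and highest in DMSO at 4 h. Subunits of CCT held 0.625% to 0.687%, the 3 HSP90 genes 0.474% to 0.639% and the HSP70 and HSP110 genes 0.350% to 0.506%. HSP60 and HSP10 together held between 0.0447% and 0.118%, and both ends of that range were 4 h libraries, HU210 at the low end and DMSO at the high end. The 27 class C J protein genes listed at all hours held 0.144% to 0.151% and varied least.

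By mean FPKM over the 8 libraries, 20 of the 78 genes reached 100, 37 lay from 10 to below 100 and 21 lay from 1 to below 10. The highest was Hsp90ab1, which encodes the constitutive cytosolic HSP90, with a mean FPKM of 1870 and rank 8 among all genes. Hspa8, the constitutive HSP70 also known as HSC70, followed at 960 and rank 33. Cct2 came next at 574 and rank 80. The most abundant J protein gene was Dnajc7, whose product joins HSP70 and HSP90, with a mean FPKM of 201.

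**Figure D1:**
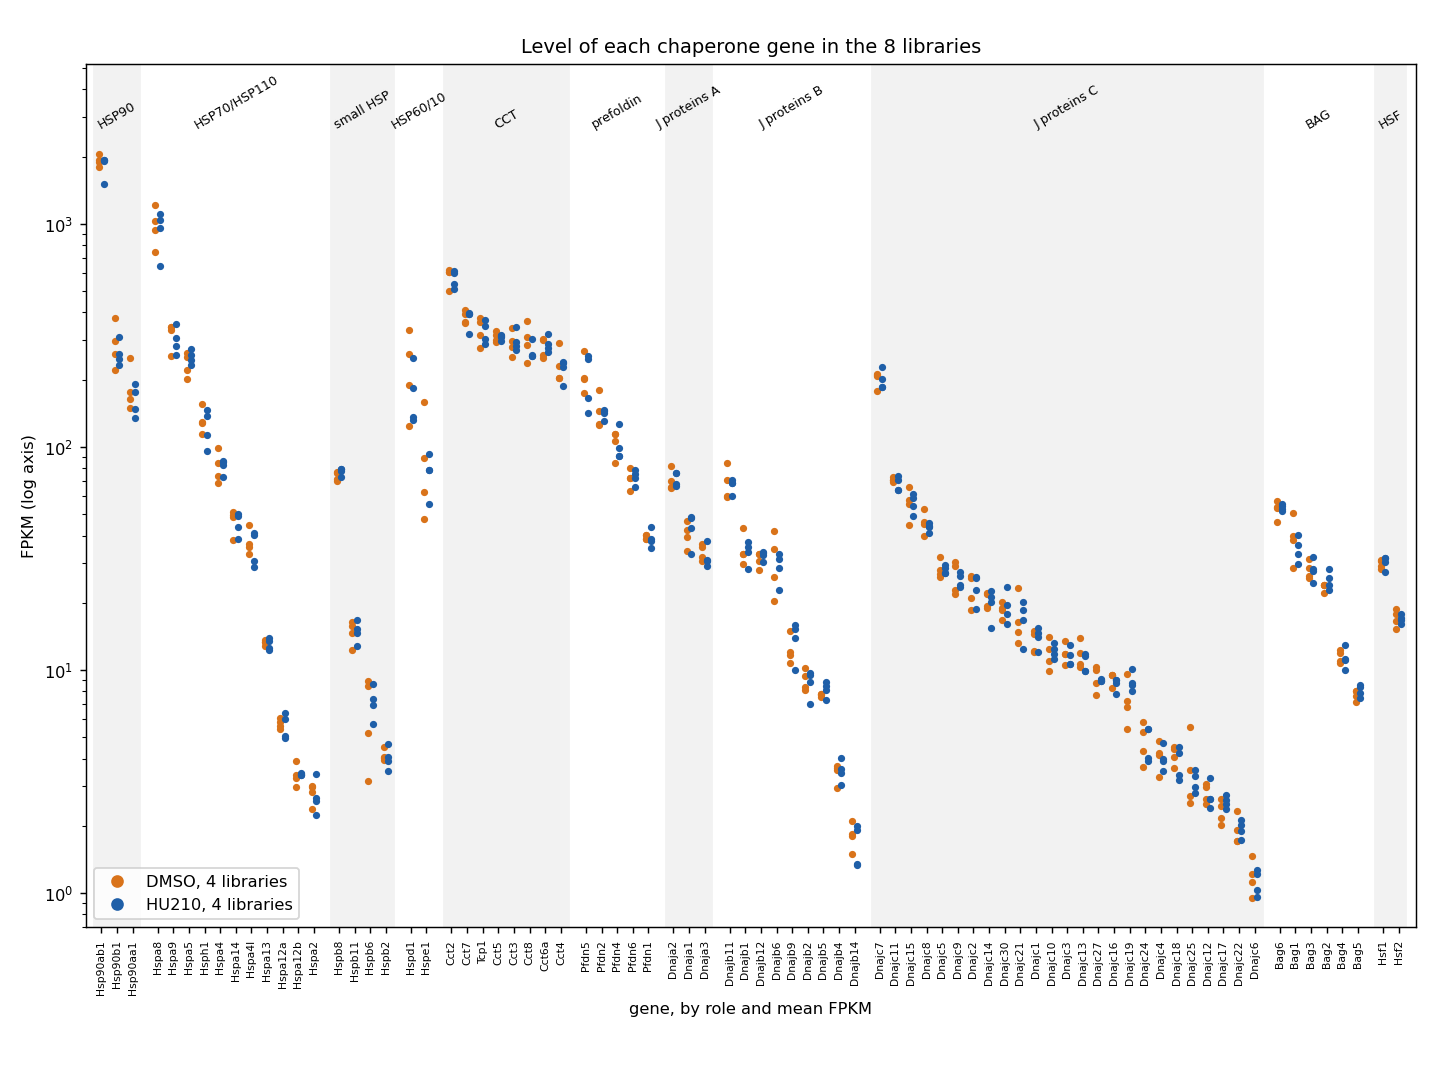
FPKM (log axis) of each of the 78 chaperone genes in the 4 DMSO libraries (orange) and the 4 HU210 libraries (blue), grouped by role and ordered by mean FPKM within a group. Hsp90ab1 lies highest, and for most genes the 8 points span less than 2-fold, with wider spans for Hspe1, Hspb6 and Hspd1.

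The HSP70 genes best known for induction by heat were close to absent. Hspa1b, an inducible cytosolic HSP70, had an FPKM between 0.0211 and 0.0963 in the 8 libraries. Its near-identical neighbour Hspa1a was listed only at 4 h, at 0.0254 with HU210 and 0.0450 with DMSO, and reads from these copies cannot be told apart with certainty. These levels stood beside 649 to 1211 for Hspa8. Other genes under the filter were Hspa1l, Hspb7, Hspb9, Cct6b, Dnaja4, Dnajb7, Dnajb13, Dnajc5b, Dnajc5g and Dnajc28, which brings the number to 12, and Dnajc5b was listed at 0 in all 8 libraries. Hsf1 and Hsf2 were both present, at 27.5 to 31.7 and 15.2 to 18.8.

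Levels of the genes were about as steady as those of other genes. Among the 77 chaperone genes whose FPKM reached 1 in every library, the highest library exceeded the lowest by a median of 1.36-fold, against 1.39-fold over 10903 genes. A span of 2-fold or more was found for 5 of them (6.49%), against 6.88% of all genes. Those 5 were Hspe1 (3.33-fold), Hspb6 (2.80-fold), Hspd1 (2.70-fold), Dnajc25 (2.18-fold) and Dnajb6 (2.07-fold). In all 5 both the highest and the lowest of the 8 libraries were DMSO libraries, and DMSO at 4 h was the highest or the lowest in each. Among the next widest genes, Pfdn5 and Dnajc21 were lowest in an HU210 library and Dnajc19 was highest in one.

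Hspd1 and Hspe1 encode the barrel (HSP60) and the lid (HSP10) of the mitochondrial chaperonin and lie head to head. In the mm9 build Hspd1 occupies chr1:55134679-55145087 on the minus strand and Hspe1 chr1:55144976-55148151 on the plus strand. In GENCODE vM1 the gap from the nearest protein-coding start of Hspd1 to that of Hspe1 is 107 bases. A longer first exon of Hspd1 makes the gene intervals overlap by 112 bases, and since the use of strand in the counting is not stated, reads from that stretch cannot be assigned with certainty.

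The shared stretch between these genes held a heat shock element, the kind of site that HSF1 binds. Promoter windows from 250 bases before to 50 bases after the start were taken from RefSeq on GRCm38.p6, and 72 of the 90 chaperone genes had one. The motif searched was GAA, TTC and GAA with 2 free bases between neighbours, or TTC, GAA and TTC spaced likewise, each being the reverse complement of the other, so that both strands are covered. It was found in 4 of the 72 genes (5.56%), against 0.662% of 27025 genes with a window. Hsp90aa1 and Cct4, both lower with HU210 by 1.5-fold at 4 h, had no window and were not searched. Dnajc21, Dnajc25, Hsp90b1 and Bag1, lower by 1.5-fold at 4 h, and Hspb6, higher, had a window without this motif. The same held for Dnajb1, Hspa1a and Hspa1b. Whether the motif goes with the difference at 4 h was not tested. The motif sites are shown because the genes that carry them include those with the largest differences at 4 h, Hspd1 and Hspe1. Each runs from 5′ to 3′ on the strand of its gene, with the motif in capitals. In the Hspd1 and Hspe1 sites, which are the same bases of chr1:55088051-55088084 read on opposite strands, 2 overlapping matches are merged.
Hspd1: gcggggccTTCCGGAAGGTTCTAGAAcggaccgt
Hspe1: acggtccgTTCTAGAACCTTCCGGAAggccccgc
Dnajb6: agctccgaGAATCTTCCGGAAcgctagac
Hsph1: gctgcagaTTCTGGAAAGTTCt

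The motif ended 127 bases before the RefSeq start of Hspd1 and 72 bases before that of Hspe1. These RefSeq starts differ from the GENCODE starts behind the gap given above. In Dnajb6, a class B J protein that keeps aggregation-prone proteins soluble, it lay at chr5:29735852-29735864 and ended 34 bases before the start. In Hsph1, an HSP110 exchange factor, it lay at chr5:149636288-149636300, within the first 50 bases after the start. A match of letters is a description and was not tested for binding. The cAMP response element (TGAC followed at once by GTCA), a palindrome, was found in 1 of the 72 (Dnajc27, 1.39%), against 2.03% of genes. The letters CCAAT or their reverse complement were found in 30 (41.7%), against 41.1%.

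Hspd1 had an FPKM of 136, 132, 183 and 251 with HU210 at 2, 4, 6 and 8 h, and of 189, 335, 124 and 261 with DMSO at the same hours. The DMSO library at 4 h was the highest of the 8 and the DMSO library at 6 h the lowest, so the treatments overlapped. Hspe1 had an FPKM of 78.5, 55.6, 93.0 and 78.4 with HU210, and of 89.4, 158, 62.9 and 47.3 with DMSO. It too was highest in DMSO at 4 h, and it was lowest in DMSO at 8 h. On the log2 ratio of FPKM + 1, HU210 over DMSO, Hspd1 stood at -0.47, -1.33, 0.55 and -0.06 at the 4 hours, and Hspe1 at -0.19, -1.49, 0.56 and 0.72. Barrel and lid thus differed from DMSO in the same direction at 2 h, 4 h and 6 h. At 8 h only Hspe1 differed by over 1.5-fold.

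At 4 h these were the lowest ratios among the 78 genes. The next was Hsp90aa1, the stress-inducible cytosolic HSP90 (mm9 chr12:111928815-111940938), at -0.90. Its FPKM was 147, 134, 176 and 192 with HU210 and 164, 251, 149 and 176 with DMSO. Again 1 library, DMSO at 4 h, stood above the rest, and the other 7 lay between 134 and 192. Dnajb6, which was chosen for its values and its motif after they were seen, had an FPKM of 33.1, 22.8, 31.4 and 28.7 with HU210 and 34.7, 42.0, 26.1 and 20.3 with DMSO, with the highest value once more in DMSO at 4 h. Hsph1, the fourth gene with a heat shock element, had log2 ratios of -0.24, -0.45, 0.18 and 0.10, with -0.24 at 4 h after removal of the GC trend.

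**Figure D2:**
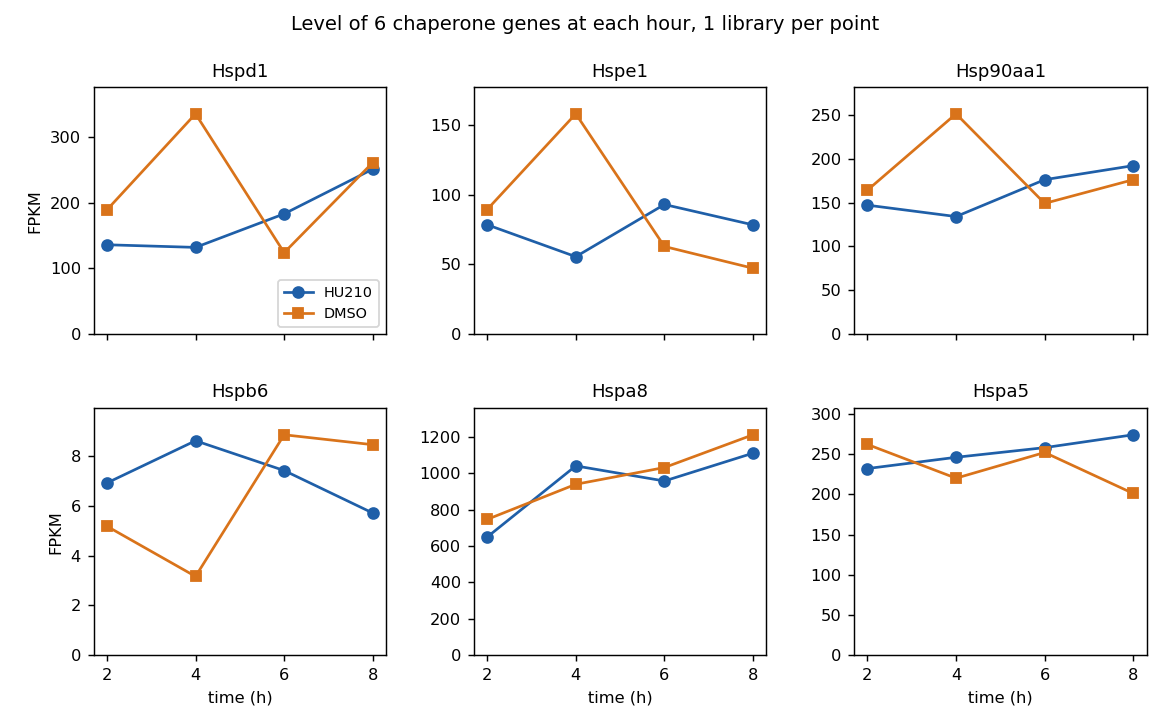
FPKM of 6 chaperone genes in HU210 (blue circles) and DMSO (orange squares) at 2, 4, 6 and 8 h, with 1 library per point and no error bars because each condition has 1 library. For Hspd1, Hspe1 and Hsp90aa1 the DMSO library at 4 h is the highest of the 8, for Hspb6 the DMSO libraries include both the lowest (3.17) and the highest (8.87), Hspa8 is lowest at 2 h in both treatments, and Hspa5 stays between 201 and 274.

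Counted hour by hour with a cutoff of 1.5-fold, and with 1 library against 1 and therefore no test, the differences were concentrated at 4 h. At 4 h 9 of the 78 genes (11.5%) were lower with HU210, beside 8.70% of the 11311 genes. They were Hspe1, Hspd1, Hsp90aa1, Dnajc21, Dnajb6, Dnajc25, Hsp90b1, Cct4 and Bag1. Hspb6 alone was higher, beside 2.77% of all genes. At 2 h no chaperone gene passed the cutoff, beside 0.504% of all genes higher and 1.45% lower. At 6 h none did either, beside 1.73% higher and 0.637% lower, and at 8 h only Hspe1 did, being higher, beside 1.17% of all genes higher and 0.557% lower.

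All 9 genes that were lower at 4 h had their highest FPKM of the 8 libraries in DMSO at 4 h, and 3 of them had their lowest in HU210 at 4 h. Among the 984 genes of the whole table that were lower by 1.5-fold at 4 h, DMSO at 4 h was the highest library for 795 and HU210 at 4 h the lowest for 604. With the mean of the 4 DMSO libraries as reference in place of the DMSO library at 4 h, 1 of the 9 was still lower by 1.5-fold, Hspd1 at -0.68. All 9 stood above DMSO at 6 h, where 65.6% of all genes passing the filter also did. The share among the 984 genes was not counted.

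The ratio at 4 h went with the GC content of the transcript, as a description across genes that share the same pair of libraries. Spearman's rho between the log2 ratio at 4 h and GC content was 0.532 over 10590 genes and 0.458 over the 78 chaperone genes, whose median GC content was 48.5% against 50.5%. At 6 h rho was -0.298 over all genes and -0.303 over the chaperone genes. After removal of the trend on GC content and length, 6 of the 9 genes were still lower by 1.5-fold at 4 h. They were Hspd1 (-1.13), Hspe1 (-1.47), Hsp90aa1 (-0.60), Dnajb6, Dnajc21 and Bag1. Those 6 made up 7.69% of the 78 genes, beside 3.62% of the 10590 genes with a GC value. The ratio of Hsp90b1 moved to -0.41 and that of Cct4 to -0.38.

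**Figure D3:**
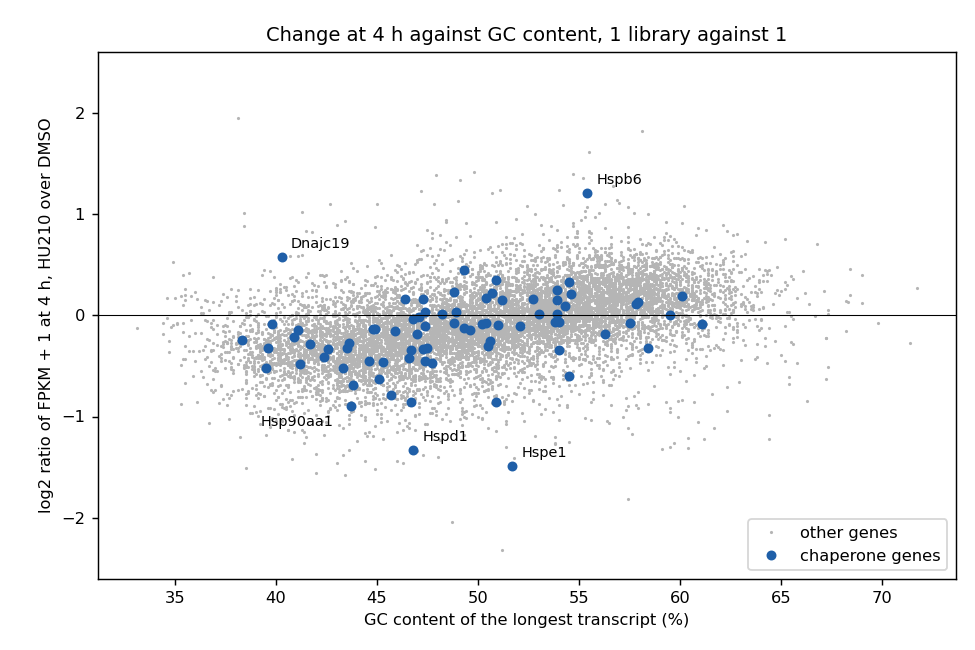
Log2 ratio of FPKM + 1 at 4 h, HU210 over DMSO, against the GC content of the longest annotated transcript, for the 78 chaperone genes (blue) and all other tested genes with a value (grey), 1 library against 1. Ratios increase with GC content in both sets (Spearman's rho 0.458 and 0.532 over all genes), and Hspd1, Hspe1 and Hspb6 lie far from the bulk at their GC content.

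Over all 78 genes the sign of the difference turned between the early and the late hours. With HU210, 60 were lower than with DMSO at 2 h and 54 at 4 h, while 57 were higher at 6 h and 54 at 8 h. The whole table turned in the same way, with 64.0% and 59.0% of genes lower at the early hours and 65.6% and 62.5% higher at the late ones. The median log2 ratio of the chaperone genes was -0.09, -0.13, 0.12 and 0.04 at the 4 hours, and that of all genes -0.05, -0.08, 0.06 and 0.04. A gene below DMSO at both early hours and above it at both late hours was found 33 times among the 78 (42.3%), against 25.1% of all genes. With each pair centred on its median ratio the pattern was found in 15 (19.2%), against 14.5%, and after correction for GC content and length in 12 (15.4%), against 12.7%.

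**Figure D4:**
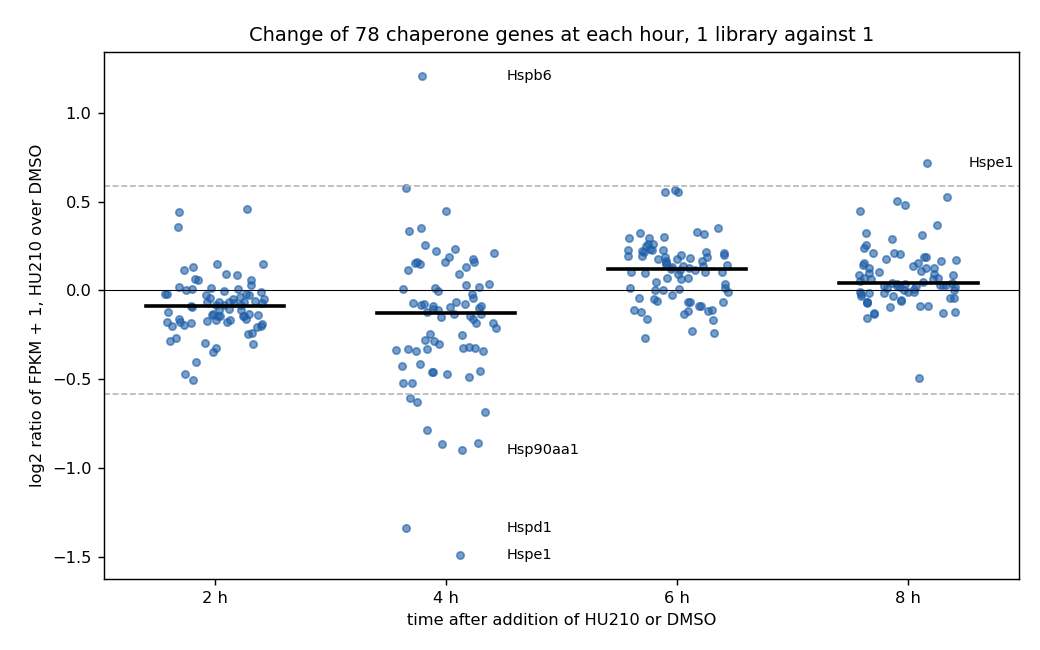
Log2 ratio of FPKM + 1, HU210 over DMSO, of the 78 chaperone genes at each hour (points, spread sideways for legibility), with their median (black bar) and the 1.5-fold cutoff (dashed lines). The points lie mostly below 0 at 2 h and 4 h and above 0 at 6 h and 8 h, and the widest scatter, from -1.49 (Hspe1) to 1.21 (Hspb6), is at 4 h.

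The hours were then used as blocks in limma over all 11311 genes, with each HU210 library set against the DMSO library of its hour. For the drug effect over the 4 hours, 0 chaperone genes and 0 genes in all (0%) passed an FDR of 5% by limma, the only tool run. At an unadjusted p under 0.05 limma gave 148 genes (1.31%) and 0 chaperone genes. The lowest adjusted p among the chaperone genes was 1.0. The median log2 difference was -0.02 over the 78 genes and 0.00 over all genes, with 29 above and 49 below 0. Hspd1 had the lowest mean difference of the 78, -0.33 (SE 0.29, 4 libraries against 4, limma adjusted p = 1.0), and without the 4 h pair it was 0.008. Dnajc19 had the highest, 0.27. The median chaperone gene had a 95% confidence interval of ± 0.24 on the log2 scale, before any correction for the number of genes. That width is no limit of detection, since Hspd1 and Dnajc19 lay beyond it and were not called.

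The turn between early and late hours was tested as the difference between the drug effect at 6 h and 8 h and that at 2 h and 4 h. Here too 0 genes (0%) and 0 chaperone genes passed an FDR of 5% by limma, and 1786 genes (15.8%) and 16 chaperone genes (of 78) had an unadjusted p under 0.05. Of these 16, 15 had a difference above 0 and 1, Hspb6, below 0. The median difference was 0.24 over the chaperone genes and 0.12 over all genes, and 62 of the 78 lay above 0. Hspe1 had the largest value at 1.47 (SE 0.40, limma adjusted p = 0.19), from a mean log2 difference of -0.84 early to 0.64 late. Hspd1 had 1.15 (SE 0.53, limma adjusted p = 0.34). Without the 4 h pair, a setting chosen after the data were seen, these became 0.82 and 0.71. The lowest adjusted p among the chaperone genes was that of Hspb6, 0.18.

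The 15 genes of an unadjusted p under 0.05 and a difference above 0 belonged to most of the families. They were Hsp90aa1, the HSP110 exchange factors Hspa4 and Hspa4l, Hspe1, the J proteins Dnaja2, Dnajb6, Dnajb9, Dnajb14, Dnajc2, Dnajc9, Dnajc21, Dnajc25 and Dnajc30, the CCT subunit Cct4 and the exchange factor Bag1. When the DMSO library at 2 h was left out, Dnajc25, an ER-linked J protein, passed the FDR of 5% with a limma adjusted p of 0.048. That is 1 of 78 chaperone genes (1.28%), beside 101 of the 11311 genes (0.893%) in the same fit. The early DMSO arm then rested on the 4 h library alone, which was assumed to vary like the others. Dnajc25 had an FPKM of 2.97, 2.79, 3.33 and 3.55 with HU210 and 3.54, 5.52, 2.73 and 2.53 with DMSO, and so turned on its DMSO value at 4 h.

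Time in culture was compared as 4 late libraries (6 h and 8 h) against 4 early ones (2 h and 4 h), with treatment as a covariate. No gene (0%) and 0 chaperone genes passed an FDR of 5% by limma, and 815 genes (7.21%) and 2 chaperone genes had an unadjusted p under 0.05. These were Hspa12a, a divergent HSP70, at 0.18 (SE 0.07, limma adjusted p = 0.66) and Dnajc1, an ER membrane J protein, at 0.20 (SE 0.08, limma adjusted p = 0.68), both higher late. Hspa8, which folds new cytosolic proteins and uncoats clathrin vesicles, had an FPKM of 649, 1040, 957 and 1110 with HU210 and 746, 939, 1031 and 1211 with DMSO. In each treatment the 2 h library was the lowest and the 8 h library the highest. Late and early libraries overlapped, and the late minus early difference was 0.37 (SE 0.16, limma adjusted p = 0.69), or 0.62 without the 4 h pair.

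Among the HSP90 genes all 3 were lower with HU210 at 2 h and 4 h and higher at 6 h and 8 h, and 2 passed 1.5-fold at 4 h. With centred pairs or without the GC trend, the 4 h and 6 h directions held for all 3, while 1 of 3 turned at 2 h and 1 or 2 turned at 8 h. Hsp90ab1 had an FPKM of 1512, 1912, 1926 and 1937 with HU210 and 1893, 2049, 1799 and 1931 with DMSO. Its lowest value was in HU210 at 2 h, with a log2 ratio of -0.32 there and between -0.10 and 0.10 later. Pseudogenes named after Hsp90ab1 were listed at 137 to 231 (Gm6368) and 22.9 to 38.0 (Gm13498), so that some of its reads could be counted elsewhere. Hsp90b1, the HSP90 of the endoplasmic reticulum (ER), had an FPKM of 260, 233, 247 and 312 with HU210 and 261, 376, 220 and 297 with DMSO, highest in DMSO at 4 h.

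Of 14 genes assigned to the ER, 13 were lower with HU210 at 2 h, 11 at 4 h, and 12 and 13 were higher at 6 h and 8 h, but after removal of the GC trend the split was 7 to 7 at each hour from 4 h on. Hspa5, also known as BiP, the main HSP70 of the ER and a sensor of ER stress, had an FPKM of 232, 246, 258 and 274 with HU210 and 262, 220, 252 and 201 with DMSO. It was higher with HU210 at 8 h, at a log2 ratio of 0.44, and the mean difference over the hours was 0.12 (SE 0.12, limma adjusted p = 1.0). Dnajb9, an ER J protein that acts on Hspa5 and is itself induced by ER stress, had 13.9, 9.96, 15.2 and 15.8 with HU210 and 14.9, 12.0, 11.7 and 10.7 with DMSO. Its log2 ratio was 0.35 at 6 h and 0.53 at 8 h, and the 2 h library was the highest of the DMSO series. The late minus early drug effect of Dnajb9 was 0.61 (SE 0.23, limma adjusted p = 0.27).

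Promoter windows of 3 ER genes held the ER stress element, CCAAT and CCACG parted by 9 bases, on either strand. That is 4.17% of the 72 genes with a window, against 0.137% of 27025 genes. All of these matches also count as CCAAT above. They are shown because these genes form one known program of the ER, with the element in capitals on the strand of the gene (GRCm38.p6, RefSeq). The Hspa5 window holds it at chr2:34772025-34772043, the Hsp90b1 window at chr10:86705638-86705656 and, reversed, at chr10:86705533-86705551, and the Dnajc3 window at chr14:118937827-118937845.
Hspa5: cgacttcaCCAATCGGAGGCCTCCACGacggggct
Hsp90b1, far site: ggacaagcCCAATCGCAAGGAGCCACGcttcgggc
Hsp90b1, near site: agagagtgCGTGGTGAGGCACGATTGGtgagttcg
Dnajc3: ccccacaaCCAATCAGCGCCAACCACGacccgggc

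At 4 h the log2 ratios of these genes were 0.16 for Hspa5, -0.69 for Hsp90b1 and -0.32 for Dnajc3, an ER J protein that inhibits the kinase PERK. After removal of the GC trend those at 4 h were 0.35, -0.41 and 0.02, so that Dnajc3 changed sign. Hspa5 and Hsp90b1 stood on opposite sides of DMSO at 4 h in both cases. At 8 h the ratios were 0.44, 0.07 and 0.12 as deposited and 0.37, -0.03 and 0.04 after removal of the trend.

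Other HSP70 members were steadier than the chaperonin of the mitochondrion. Hspa9, or mortalin, the mitochondrial HSP70 that pulls proteins in through the inner membrane, had an FPKM of 259, 308, 284 and 355 with HU210 and 343, 344, 255 and 335 with DMSO. Its largest difference was at 2 h, a log2 ratio of -0.40. Of the 11 HSP70 and HSP110 genes tested, 10 were lower with HU210 at 2 h and 9 still were after either correction. At 4 h 7 were lower, against 6 with centred pairs and 5 without the GC trend, and none passed 1.5-fold at any hour. Hspa2, an HSP70 best known from the testis, stood at an FPKM of 2.23 to 3.42 and had the second lowest ratio at 8 h, -0.16.

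Dnajc19, a J protein of the inner mitochondrial membrane and a partner of Hspa9, ran against Hspd1 and Hspe1 at the early hours. Its FPKM was 10.1, 8.56, 8.00 and 8.73 with HU210 and 7.22, 5.41, 9.61 and 6.84 with DMSO. It was lowest in DMSO at 4 h, with log2 ratios of 0.44, 0.58, -0.24 and 0.31 at successive hours. The mean difference over the hours was 0.27 (SE 0.14, limma adjusted p = 1.0). After removal of the GC trend its ratio at 4 h was 0.86. Of the 9 mitochondrial members tested, 7 were lower at 2 h under all 3 scalings, and at 4 h 7 were lower as deposited and 6 after either correction.

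Hspb6, a small heat shock protein also called HSP20 (mm9 chr7:31337197-31340462), stood opposite at 4 h to the 9 genes that were lower. Its FPKM was 6.93, 8.63, 7.43 and 5.72 with HU210 and 5.19, 3.17, 8.87 and 8.47 with DMSO. With HU210 it lay above DMSO at 2 h and 4 h and below it at 6 h and 8 h, with log2 ratios of 0.36, 1.21, -0.23 and -0.49. The HU210 series varied by less than the DMSO series, in which the 4 h value was the lowest of all 8. Its late minus early drug effect was -1.14 (SE 0.28, limma adjusted p = 0.18), and -0.72 without the 4 h pair.

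Hspb8, a small heat shock protein that works with Bag3 in the removal of misfolded proteins, varied least among the small heat shock proteins. It had an FPKM of 79.8, 78.0, 79.4 and 73.5 with HU210 and 76.4, 77.1, 72.0 and 70.2 with DMSO. HU210 was higher at all 4 hours, by 0.01 to 0.14 on the log2 scale, which limma did not call (0.07, SE 0.07, adjusted p = 1.0). Dnajb12 and Dnajc16 were the other genes of the 78 to keep 1 sign throughout, with ratios between -0.10 and 0.12. After removal of the GC trend Hspb8 stood at -0.02 at 4 h and Dnajb12 at -0.01 at 8 h. Bag3 itself had 24.6 to 32.2. Hspb11, a small heat shock protein homologue of the intraflagellar transport machinery, had 12.3 to 16.8.

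The J proteins were the largest family, with 43 genes of which 37 passed the filter. Dnaja1 and Dnajb1 are the main cytosolic partners of Hspa8. Dnaja1 had an FPKM of 43.4, 33.1, 47.9 and 48.6 with HU210 and 39.5, 46.7, 42.3 and 34.0 with DMSO, lower at 4 h (-0.49, or -0.09 after removal of the GC trend) and higher at 8 h (0.50, or 0.40). Its level is uncertain because pseudogenes named after it were listed higher than the gene itself, Gm15542 at 82.5 to 136 and Gm7816 at 56.9 to 102. These stood at -0.72 and -0.71 at 4 h, in the direction of Dnaja1. In all, 16 pseudogene entries were named after chaperone genes and 12 reached an FPKM of 1, among them entries named after Cct3, Cct7 and Dnajb6. Whether reads were shared between these copies was not tested.

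Dnajb1, a target of HSF1 that also helps to shut HSF1 off, had an FPKM of 28.3, 33.8, 37.3 and 35.6 with HU210 and 29.8, 43.0, 33.2 and 33.0 with DMSO. Dnajc21, a J protein of ribosome assembly, had 16.8, 12.4, 20.1 and 18.6 with HU210 and 16.4, 23.3, 13.2 and 14.7 with DMSO. Both were highest in DMSO at 4 h. Dnajc21 had the highest ratio of all 78 genes at 6 h, 0.57, beside -0.86 at 4 h. Dnajc24, which takes part in the modification of a translation factor, had the highest ratio at 2 h, 0.46, and was below DMSO at the other 3 hours.

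Dnajc7 had an FPKM of 186, 227, 185 and 201 with HU210 and 211, 178, 208 and 210 with DMSO. It was above DMSO only at 4 h, at 0.35. Dnaja2, Dnaja3, Dnajb11, Dnajb12, Dnajc11 and Dnajc15, the other most abundant members of their classes, had levels between 28.0 (Dnajb12) and 84.6 (Dnajb11) in all libraries. None of these 6 differed by 1.5-fold at any hour. Of the 25 class C genes tested, 18 were lower with HU210 at 4 h, against 16 with centred pairs and 11 after removal of the GC trend.

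Of 12 genes assigned as stress-inducible 9 were tested, namely Hspd1, Hspe1, Hsp90aa1, Hsph1, Dnajb1, Dnaja1, Hspa4l, Hspb8 and Bag3. The heat-induced Hspa1a and Hspa1b did not pass the filter, and Hspb1 was not listed. Of the 9, 8 were lower with HU210 at 4 h, beside 59.0% of all genes. All 9 were higher at 6 h, beside 65.6% of all genes. With centred pairs the counts were the same, and without the GC trend all 9 were lower at 4 h and all 9 higher at 6 h. Their median log2 ratio at 4 h was -0.49, against -0.13 for the 78 genes. At that hour 3 were lower by 1.5-fold, beside 8.70% of all genes. The median was 0.18 at 6 h and 0.13 at 8 h. At those hours 9 and 8 genes were above 0, beside 65.6% and 62.5% of all genes. These lists were assigned from knowledge of the genes with earlier results of these data known, and their counts are a description.

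Hsf1, the factor that drives the heat shock response, had an FPKM of 27.5, 31.7, 30.3 and 31.7 with HU210 and 28.4, 29.1, 30.8 and 31.2 with DMSO. The treatments overlapped, and the mean log2 difference was 0.02 with a 95% confidence interval of -0.15 to 0.19 (limma adjusted p = 1.0). Hsf2 lay within 0.21 of DMSO at every hour. The mRNA level of a factor does not report its activity.

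CCT is a double ring of 8 different subunits in equal number. Their mRNAs were not equal. Cct2 was the highest subunit in all 8 libraries, at an FPKM of 500 to 617, and Cct4 was the lowest in 7, with 188 to 240 in those. In DMSO at 4 h Cct4 was at 292 and Cct3 was the lowest at 253. The ratio of the highest to the lowest subunit was 2.26 to 3.18. Pseudogenes named after Cct3 were listed at 91.4 to 160 (Cct3-ps1) and 31.3 to 52.0 (Gm11516). Those named after Cct7 were at 28.8 to 38.9 (Gm5380) and 16.4 to 23.8 (Gm12180). Some reads of Cct3 and Cct7 could thus be counted elsewhere, and their place in this order is uncertain. The ranges of Tcp1 (278 to 376), Cct5 (295 to 330), Cct3 (253 to 345), Cct8 (237 to 367) and Cct6a (249 to 319) overlapped each other, so these neighbours had no order beyond the spread of the libraries. The testis-type subunit Cct6b was at 0.0745 or below.

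**Figure D5:**
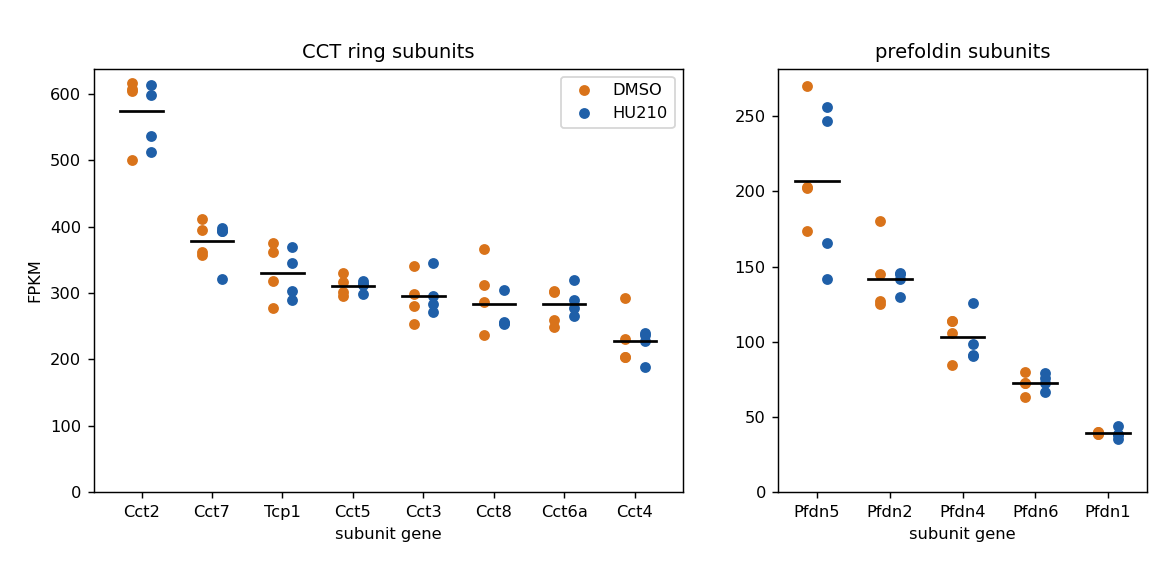
FPKM of the subunit genes of CCT (left) and prefoldin (right) in the 4 DMSO libraries (orange) and the 4 HU210 libraries (blue), with the mean of all 8 (black bar). Cct2 lies between 500 and 617, above every other CCT subunit, and Pfdn5 spreads most among prefoldin subunits, from 142 to 270.

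CCT subunits did not differ from DMSO together. At 4 h 5 of 8 were lower with HU210, but 2 of 8 with centred pairs and 4 of 8 without the GC trend. Cct4 and Cct3 stood at opposite ends at 4 h, at -0.63 and 0.45. Cct3 had an FPKM of 295, 345, 283 and 272 with HU210 and 299, 253, 341 and 280 with DMSO, lowest in DMSO at 4 h. Cct7 had 321, 393, 393 and 398 with HU210 and 395, 411, 362 and 358 with DMSO, and was lowest in HU210 at 2 h.

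Prefoldin is a jellyfish-shaped complex of 6 subunits that hands actin and tubulin to CCT, and 5 of its genes carry the Pfdn symbol here. Pfdn5 was the most abundant, at 142, 256, 166 and 247 with HU210 and 202, 203, 174 and 270 with DMSO. It had the lowest ratio of all 78 genes at 2 h, -0.50, and the 8 h library was high in both treatments. Pfdn2 (125 to 180) and Pfdn4 (84.7 to 126) followed. At 4 h 3 of the 5 subunits were higher with HU210 under all 3 scalings.

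Several BAG proteins release substrate from HSP70 by exchanging its nucleotide. Bag6, which guards proteins bound for the ER membrane, was the most abundant at 46.2 to 57.1. Bag1 had an FPKM of 29.9, 32.9, 36.1 and 40.4 with HU210 and 38.3, 50.6, 28.6 and 39.6 with DMSO. It was highest in DMSO at 4 h and lowest in DMSO at 6 h, with log2 ratios of -0.35, -0.60, 0.33 and 0.03.

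A list of 71 other genes of the chaperone pathways was read beside them: HSP90 cochaperones, HSP70 partners, mitochondrial and ER folding factors, and partners of prefoldin, CCT and HSF. Of these 70 were in the table and 67 passed the filter. By limma 0 of the 67 passed an FDR of 5% in any comparison. An unadjusted p under 0.05 was found for 1 in the drug effect, beside 1.31% of all genes. It was found for 5 in late against early, beside 7.21% of all genes. For the difference between late and early drug effects it was found for 9, beside 15.8% of all genes. At 4 h 6 of the 67 were lower and 1 higher by 1.5-fold, beside 8.70% and 2.77% of all genes. The median log2 ratio of the 67 at 4 h was 0.12, above 0, where that of the 78 chaperone genes was below 0. Without the GC trend the median of the 78 was -0.01, and that of the 67 was not computed. Ppid, a prolyl isomerase that binds HSP90, had an FPKM of 43.8, 34.6, 44.9 and 42.3 with HU210 and 52.4, 58.3, 36.8 and 38.2 with DMSO, and Uri1, a prefoldin-like scaffold, had 10.7, 8.34, 13.1 and 12.2 and 12.8, 13.2, 8.46 and 10.0. Both were highest in DMSO at 4 h, and both were below DMSO early and above it late, with late minus early drug effects of 0.71 (SE 0.18, limma adjusted p = 0.18) and 0.84 (SE 0.19, limma adjusted p = 0.17). For the drug effect the smallest p were those of Ruvbl1, a helicase of HSP90 assembly complexes (0.22, SE 0.09, limma adjusted p = 1.0), and Sdf2l1, an ER partner of J proteins (0.20, SE 0.11, limma adjusted p = 1.0). For late against early they were those of the tubulin cofactor Tbcb (-0.21, limma adjusted p = 0.64) and Pdrg1 (-0.22, limma adjusted p = 0.65).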

How the data were processed

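Each of the 8 mRNA libraries of N2A cells was 1 condition, pooled from 2 to 3 experiments. Per the labels and the study's methods, the authors aligned the reads to mm9 along Ensembl transcripts with Bowtie2 2.1.0 under TopHat2 2.0.8, handled them with SAMtools 0.1.7, and computed FPKM with Cufflinks, which corrected for fragment bias and for reads of more than 1 origin and scaled each library by its upper quartile. This makes libraries comparable by scale but keeps neither depth nor counts. The version of Cufflinks, the annotation release and the use of strand are not given in the sources used here. The authors deposited FPKM + 1, and 1 was subtracted. The rows named Treatment and Control were taken as HU210 and DMSO. The deposited table also holds the authors' own log2 fold change and their p-value and q-value (score columns) for each hour, and a second deposited table holds the genes they called. Neither was used.

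A gene entered the tests when it was listed at all 4 hours with a mean FPKM of at least 1. Log2(FPKM + 1) was fitted for all 11311 such genes in limma 3.58.1 (R 4.3.3, empirical Bayes with a trend, Benjamini-Hochberg over all genes, FDR of 5%), for the drug effect with the hour as a block, for late against early with treatment as a covariate, and for the interaction of both. The p-values measure the spread over hours, not over cultures. At each hour 1 library was set against 1 with no test, and a fold of 1.5 was counted. Fold changes on this scale understate the change of low genes. The fit was tested on simulated data with planted changes, independent noise and the same spread for all genes. That test checked the size of the estimates and does not tell how many real changes could be called here.

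GC content and length came from GENCODE vM1 on mm9, which held 93.6% of the tested genes and all 78 chaperone genes, and their trend was removed by loess with a span of 0.3. Promoter windows came from RefSeq on GRCm38.p6, and no coordinates were moved between builds. Values were given for the 3 most abundant genes of each family, the 3 highest and 3 lowest ratios at each hour, a fixed set of well-known chaperones, and, of the other pathway genes, those with the smallest p. Genes beyond these (Dnajb6, Dnajc25, Dnajc3, Hsph1, Hspa12a, Dnajc1, Cct4 and Cct6b) were added after their values were seen. Values of Cct5, Cct6a, Cct8, Dnajc5b and Dnajc16 were also given outside these rules. The genes and lists were chosen with earlier results of these data known. Alternatives were a pseudocount of 0.1, no filter or a mean FPKM of 5, centred libraries or pairs, the GC trend, the mean DMSO reference, other folds, an unadjusted p, fits without a trend or without the hour block, and leaving out each library or hour.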

Additional observations from a re-analysis of the deposited data

How the results depend on the processing

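The hour paired the libraries in the drug effect, and the labels carry no other replicate numbers. That effect called 0 chaperone genes under every alternative run, including the fit without the hour block, and late against early called 0 except at an unadjusted p under 0.05, where it gave 2. The late minus early drug effect gave 0 to 1 when each library was left out in turn, the 1 being Dnajc25 without DMSO at 2 h (1.28%, beside 0.893% of all genes), and 16 at an unadjusted p. Counts by fold moved as follows, the cause of which was not tested beyond what each setting does. At 1.3-fold the numbers higher and lower were 2 and 3 at 2 h (2.56% and 3.85%, beside 1.49% and 3.91% of all genes), 3 and 18 at 4 h (3.85% and 23.1%, beside 8.96% and 19.9%), 3 and 0 at 6 h (3.85% and 0%, beside 6.38% and 1.72%), and 5 and 1 at 8 h (6.41% and 1.28%, beside 4.38% and 1.44%). At 2-fold 1 higher and 2 lower were left at 4 h (1.28% and 2.56%, beside 0.433% and 1.58% of all genes). At 8 h 0 were left, beside 0.301% of all genes higher and 0.141% lower. With the mean DMSO reference, 2 h had 1 lower (1.28%, beside 1.38% of all genes). With that reference 4 h had 0 higher and 1 lower (0% and 1.28%, beside 0.442% and 1.61%), and 8 h had 0 higher, beside 0.654%. At 4 h 2 were higher (2.56%) with a pseudocount of 0.1, with centred pairs or without the GC trend, beside 3.97%, 4.49% and 2.38% of all genes. The number lower at 4 h was 10 with a pseudocount of 0.1 (12.8%, beside 11.4%) and 7 with centred pairs (8.97%, beside 6.06%). Without the GC trend it was 6 (7.69%, beside 3.62%). At 6 h 1 was higher with a pseudocount of 0.1 (1.28%, beside 2.63%). The median ratio at 8 h reversed to -0.004 with centred pairs and -0.010 without the GC trend, and the drug effect of Hspd1 reversed to 0.008 without the 4 h pair (-0.621 to 0.008 over the 4 hours left out in turn). FPKM hold no count per gene, so no alternative could weigh genes by reads. With 1 library per condition, the differences at a single hour had no replicate check.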
